A study of Drosophila melanogaster with 4 samples.

Results

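Translation initiation factors bring the small ribosomal subunit, the initiator tRNA and the start codon of an mRNA together, and their genes are described here in sorted embryonic gonads of Drosophila melanogaster. The genes were chosen by symbol alone: all entries of the deposited table whose symbol begins with eIF (case-sensitive), 32 of 17103 genes. Gonads came from stage 17 embryos, aged 18 to 22 h at 25°C. In the Phf7 mutant group (2 libraries) the embryos carried the Phf7[DN18] allele and the vasGFP transgene, and in the control group (2 libraries) they carried vas-GFP and normal Phf7. Phf7 is a chromatin reader of the male germline. The vas promoter drives the reporter in germ cells of both groups, but whole GFP-positive gonads were sorted from homogenised embryos, so that germ cells and somatic gonad cells were measured together. Male and female gonads were not separated. The question put to each gene was whether its level differed between mutant and control gonads. In such bulk samples fewer cells of a type and less RNA per cell cannot be told apart.

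Initiation in eukaryotes runs through a small number of complexes. eIF2, a trimer, carries the initiator tRNA to the ribosome and is recharged with GTP by eIF2B. eIF1A and eIF5 act in start codon selection, and the many-subunit eIF3 holds the scanning ribosome together. eIF4E binds the cap of the mRNA, eIF4G is the scaffold between cap, helicase and ribosome, and eIF4A with eIF4B unwinds the leader. eIF5B joins the large subunit, while eIF6 keeps free large subunits apart from small ones. In the fly germline several of these factors have duplicates, some of which are needed in the testis, and the eIF4E family is the largest such set.

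Each library reads the 3′ ends of mRNAs primed at their poly(A) tail. The authors deposited no count per library, only a mean over the 4 libraries for each gene and their own comparison. The whole reads of each library were recovered from the mean. Above a mean of 1000 the deposited fold change and its error were needed too. The libraries of a genotype are called a and b, letters that tell them apart and carry no order. Values are normalized counts, that is, reads divided by the size factor of the library. Because 1 read stands for 1 transcript end, counts were not divided by gene length, and levels of different genes are compared as counts of 3′ reads. The recovered genes held 6541129 and 6243293 reads in Phf7 mutant libraries a and b, and 5507204 and 4630873 reads in control libraries a and b. Phf7 itself had normalized counts of 7.97 and 39.2 in the mutant libraries, against 761 and 601 in the control libraries. All 12 germ cell markers and all 10 somatic gonad markers were detected in every library.

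Markers of other tissues divided the libraries within each genotype. The summed normalized count of 14 muscle markers was 8801 in mutant a and 3629 in mutant b, against 3557 in control a and 6533 in control b. For 9 neuron markers the sums were 5106 in mutant a and 1453 in mutant b, against 942 in control a and 2583 in control b. For the 9 detected of 10 midgut markers they were 5422 in mutant a and 645.9 in mutant b, against 391.2 in control a and 5589 in control b. For 5 hemocyte markers they were 341 in mutant a and 122.9 in mutant b, against 179.9 in control a and 340.2 in control b. Mutant a and control b thus held more RNA of these 4 lists than the other library of their genotype. The sum of the 2 detected of 4 fat body markers went the other way, with 783 in mutant a and 1026 in mutant b, against 1156 in control a and 1080 in control b. Only 1 of these 2 reached the minimum mean for the test used below, and 1 was at 0 in a library. No detected muscle, neuron or midgut marker was at 0 in any library.

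Of the 32 initiation factor genes, 28 had a mean normalized count of at least 10 and were tested, 3 had fewer reads, and eIF4E-4 had none. The tested genes spanned a wide range of levels, and the genes of eIF2 and of the eIF4 complex lay far apart within it. eIF-5A and eIF-4a were the most abundant, with means over the 4 libraries of 21512 and 21034 normalized counts. Next came eIF-2beta, eIF-1A and the eIF3 subunits, at 2967 to 6549 normalized counts, with both eIF4G genes, eIF-2alpha and eIF5B between 2750 and 3463. eIF-4E and eIF-2gamma had means of 1648 and 1126. The eIF2B subunits, eIF5, eIF2D, eIF6 and eIF4AIII lay at 217 to 1094 normalized counts. The eIF4E paralogs other than eIF-4E, and eIF-4B, lay lowest.

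**Figure D1:**
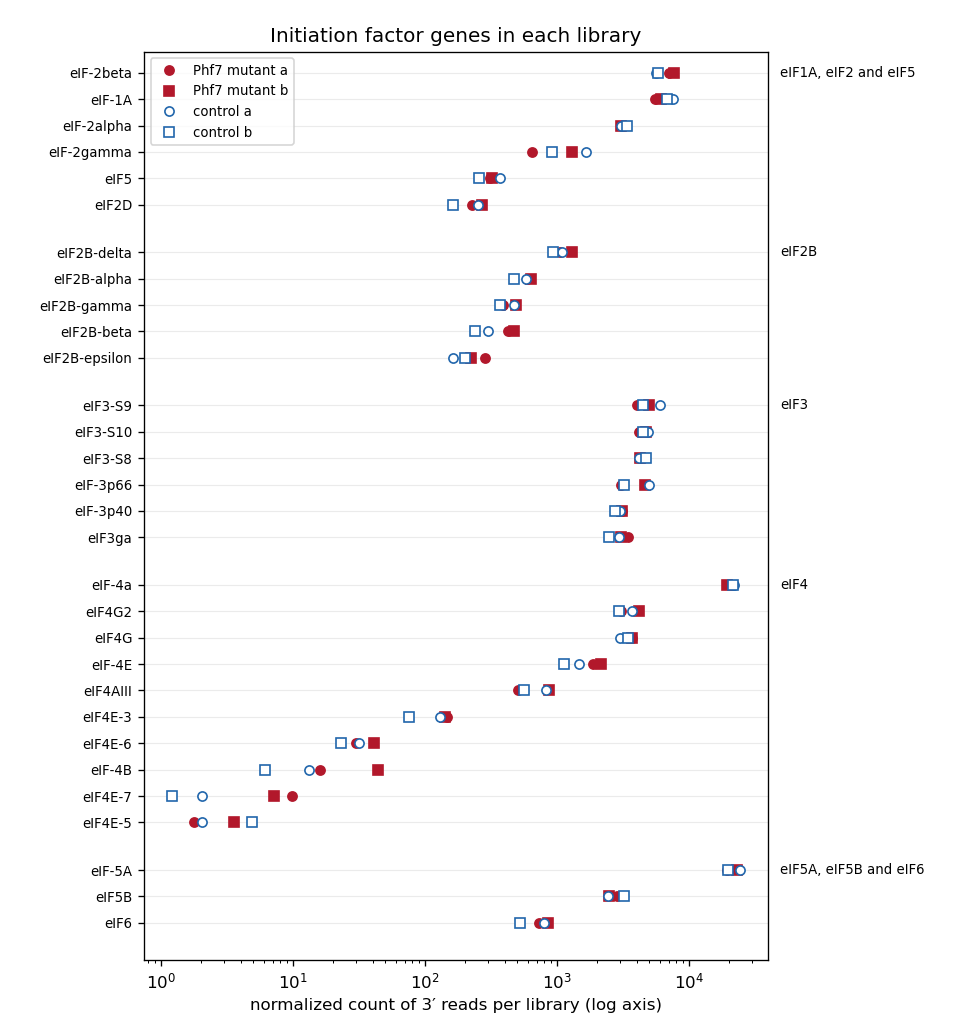
Normalized counts (log axis) of the 30 initiation factor genes with a mean of at least 1, in each Phf7 mutant library (filled) and each control library (open), grouped by complex and ordered by mean. eIF3gb and eIF4E-4 are not drawn; the points of most genes lie close together, and the lowest are the paralogs eIF4E-5 and eIF4E-7.

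No initiation factor gene passed the test between genotypes. In limma on log2(normalized count + 1), with Benjamini-Hochberg adjustment over the 9001 genes tested, 0 of 28 members had an adjusted p under 0.05, where 0 genes passed in the whole table (percent called 0.0). At an unadjusted p under 0.05 stood 2 of 28 members, eIF-4E and eIF2B-beta, both higher in mutants, beside 5.92% of all genes tested. Leaving out mutant a, mutant b or control b brought this count to 0, and leaving out control a kept it at 2. limma-voom gave the same counts, 0 members past the adjusted threshold and 2 at an unadjusted p under 0.05. The fitted difference was positive, meaning higher in mutants, for 17 members and negative for 11, beside 4741 and 4260 of all 9001 genes tested. Its median was 0.11 on the log2 scale over members and 0.02 over all genes tested. The median over members was 0.21 without mutant a, 0.04 without mutant b, 0.26 without control a and 0.02 without control b. For 20 of 28 members (71.4%) the 95% interval of the difference lay within a 2-fold change in either direction, against 39.8% of all genes tested. These shares were not matched for level: 11 of 28 members had a mean up to 1000, against 7653 of all 9001 genes tested.

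Values of the 2 genotypes did not overlap in 12 of 28 members, and this was seen in 33.0% of all genes tested. In 10 of these members both mutant libraries were above both control libraries, which held for 16.2% of all genes. In the other 2, eIF-1A and eIF-4a, both mutant libraries were below both controls, which held for 16.8% of all genes. The 10 were eIF-2beta, eIF2B-alpha, eIF2B-beta, eIF2B-epsilon, eIF3ga, eIF-3p40, eIF-4E, eIF4E-3, eIF4G and eIF-4B.

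**Figure D2:**
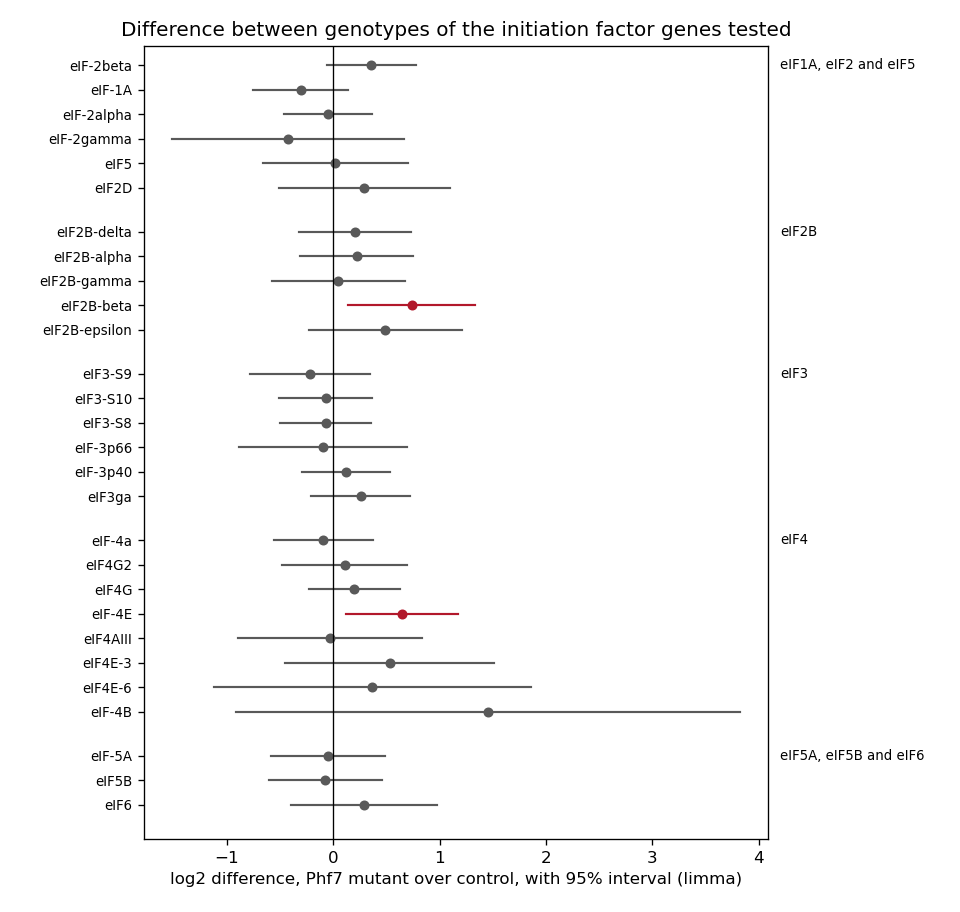
Log2 difference of Phf7 mutant over control with its 95% interval from limma for the 28 initiation factor genes tested, grouped by complex. The intervals of eIF-4E and eIF2B-beta (red) do not reach 0 before adjustment over all genes, and the widest interval is that of eIF-4B, the gene with the fewest reads among those tested.

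Among the eIF2 subunits the gene of highest mean was eIF-2beta, whose product contacts the start codon machinery and eIF5. It had 7090 and 7633 normalized counts in mutant libraries a and b, against 5659 and 5813 in control libraries a and b. The mutant libraries were both above the controls, with a log2 difference of 0.36 (SE 0.17, 95% interval −0.06 to 0.78, limma adjusted p = 0.941). The lowest was eIF-2gamma, the GTP-binding subunit. It had 646.6 and 1298 normalized counts in mutants, against 1641 and 917.2 in controls, so that the groups overlapped and each genotype had 1 high and 1 low library. Its log2 difference was −0.42 (SE 0.43, adjusted p = 0.980), and without mutant a it turned to 0.08.

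The subunits of eIF2 did not keep 1 ratio in all libraries. eIF-2alpha, the subunit that stress kinases phosphorylate, was the steadiest of the 3, with 3047 to 3365 normalized counts over the 4 libraries. The ratio of eIF-2beta to eIF-2alpha was 2.26 and 2.5 in mutants, against 1.86 and 1.73 in controls. The ratio of eIF-2beta to eIF-2gamma was 10.96 and 5.88 in mutants, against 3.45 and 6.34 in controls, and overlapped.

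The eIF-2gamma gene lies on chromosome 3R from 15257844 to 15263458 (minus strand; BDGP6.54, the coordinates of dm6). It shares 352 exon bases on the same strand with Su(var)3-9, which encodes a histone H3K9 methyltransferase and in flies is transcribed as part of the same unit. Su(var)3-9 had 27.5 and 65.9 normalized counts in mutants, against 73.2 and 46.2 in controls. Its high and low libraries were those of eIF-2gamma, and the ratio of eIF-2gamma to Su(var)3-9 stayed between 19.7 and 23.6 in the 4 libraries. Reads in the shared bases cannot be told apart.

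eIF-1A, which with eIF1 opens the ribosome for scanning, had 5468 and 6095 normalized counts in mutants, against 7545 and 6743 in controls. Both mutants were below both controls, with a log2 difference of −0.31 (SE 0.18, 95% interval −0.75 to 0.14, adjusted p = 0.980). eIF5, the GTPase activator of eIF2, had 307.4 and 319.8 normalized counts in mutants, inside the range of 371.9 and 257.6 in controls. The eIF5 gene shares 2588 of its 3203 exon bases with CG46312 on the same strand, and CG46312 is listed at 0 in the deposited table. How reads in the shared bases were counted is not given, so the counts of eIF5 may miss reads. eIF2D, which acts in reinitiation and ribosome recycling, had 225.9 and 269.1 normalized counts in mutants, against 250.0 and 161.6 in controls, and the groups overlapped.

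The 5 genes of eIF2B, the guanine nucleotide exchange factor of eIF2, all had a positive fitted difference, with log2 values from 0.05 to 0.74 and a median of 0.22, where 4741 of 9001 genes were positive. eIF2B-gamma turned to −0.12 without mutant b and to −0.13 without control b, eIF2B-delta was 0.05 without mutant b, and eIF2B-alpha was 0.07 without control b. In 3 of the 5 genes, eIF2B-alpha, eIF2B-beta and eIF2B-epsilon, the mutant and control values did not overlap, beside 33.0% of all genes tested. eIF2B-beta, a subunit of the regulatory part, had 424.3 and 474.0 normalized counts in mutants, against 301.8 and 239.3 in controls. It was 1.67-fold higher in mutants on the scale of log2(normalized count + 1), a log2 difference of 0.74 (SE 0.24, 95% interval 0.14 to 1.34, limma adjusted p = 0.725). Leaving out 1 library at a time gave log2 differences from 0.57 to 0.90. The gene lies on chromosome X from 2704571 to 2706217 (plus strand) and overlaps CG2680 on the other strand by 67 exon bases.

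The eIF2B genes had means of 217 to 1094 normalized counts. The highest was eIF2B-delta, also of the regulatory part, with 1043 and 1305 normalized counts in mutants, against 1097 and 929.4 in controls. The lowest was eIF2B-epsilon, the catalytic subunit, with 286.1 and 222.7 normalized counts in mutants, against 161.6 and 199.2 in controls. Their ratio within a library was between 3.64 and 6.79. The log2 difference of eIF2B-epsilon was 0.49 (SE 0.28, adjusted p = 0.980), and those of eIF2B-alpha, eIF2B-gamma and eIF2B-delta were 0.22, 0.05 and 0.21.

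The eIF3 subunits listed with the eIF prefix lay close together in level, while eIF3 genes under other symbols, given further on, spread more widely. The 6 tested genes had means of 2967 to 4869 normalized counts, and the ratio of the highest to the lowest subunit was 1.41 in mutant a and 1.64 in mutant b, against 2.03 in control a and 1.93 in control b. The subunit of highest mean was eIF3-S9 (eIF3b), part of the core of the complex. It had 4000 and 4990 normalized counts in mutants, against 5975 and 4510 in controls, with overlap. The lowest was eIF3ga (eIF3g1), an RNA-binding subunit. It had 3422 and 3035 normalized counts in mutants, against 2947 and 2465 in controls, without overlap and with a log2 difference of 0.26 (SE 0.19, adjusted p = 0.980).

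Fitted log2 differences over the eIF3 genes lay between −0.22 and 0.26, with 2 positive, 4 negative and a median of −0.07. The 4 negative ones were the core subunits eIF3-S10 (eIF3a), eIF3-S8 (eIF3c) and eIF3-S9, and eIF-3p66 (eIF3d1), a subunit that in human cells can bind the cap. eIF-3p66 varied most within genotypes, with 3028 and 4614 normalized counts in mutants, against 5007 and 3192 in controls. The duplicate eIF3gb (eIF3g2) was nearly silent, with 1 read in mutant a and none in the other 3 libraries, so no fold is given.

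The cap-binding protein eIF-4E (eIF4E1), the general factor of its family, had, with eIF2B-beta, the smallest adjusted p of the initiation factor genes. It had 1859 and 2153 normalized counts in mutants, against 1456 and 1124 in controls. Both mutant libraries were above both controls, and the level was 1.56-fold higher in mutants, a log2 difference of 0.65 (SE 0.21, 95% interval 0.12 to 1.17, limma adjusted p = 0.725). Leaving out 1 library at a time gave log2 differences from 0.46 to 0.83. The gene lies on chromosome 3L from 9399618 to 9402460 (minus strand) and shares no exon bases with another gene.

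**Figure D3:**
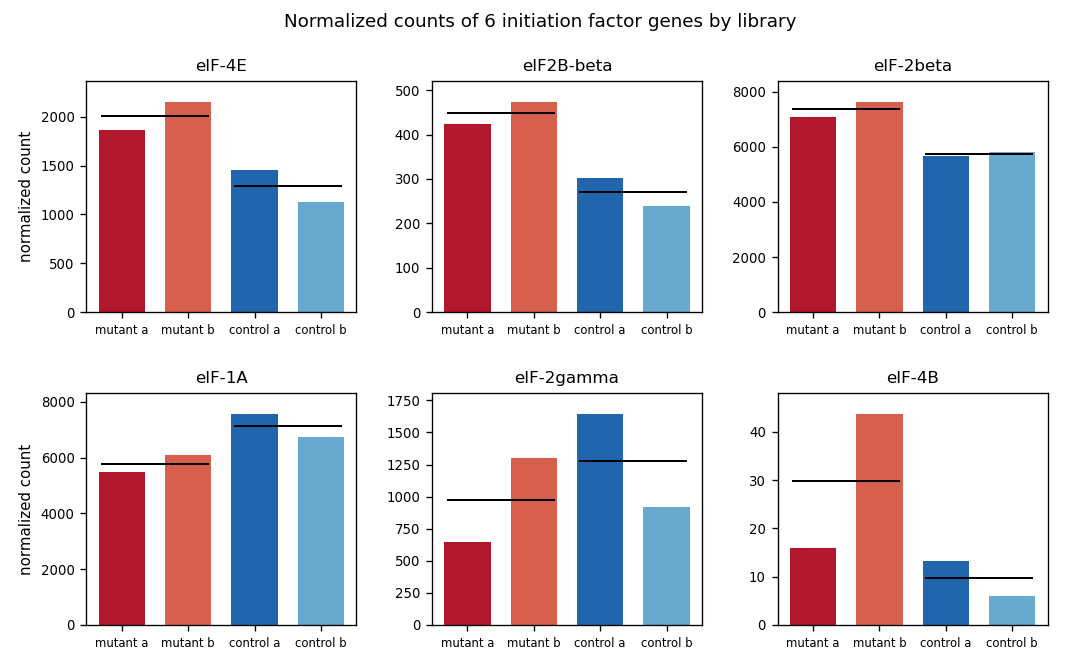
Normalized counts of 6 initiation factor genes in each library, with bars from 0 and a black line at the mean of each genotype; the axis differs between genes. eIF-4E, eIF2B-beta and eIF-2beta are higher in both mutants than in both controls, eIF-1A is lower in both, eIF-2gamma is split within each genotype, and eIF-4B rests on few reads.

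The other eIF4E paralogs were far below eIF-4E. eIF4E-3, which in the fly is needed for meiosis and sperm formation in the testis, had 146.2 and 140.8 normalized counts in mutants, against 130.1 and 75.3 in controls. The groups did not overlap, but the 2 controls differed more from each other than control a did from the mutants, and the log2 difference was 0.53 (SE 0.39, adjusted p = 0.980). It was 0.14 without control b and 0.92 without control a. eIF4E-6 had 30.1 and 41.0 normalized counts in mutants, against 31.5 and 23.1 in controls, and overlapped. The ratio of eIF-4E to eIF4E-3 was 12.7 and 15.3 in mutants, against 11.2 and 14.9 in controls, and eIF-4E was above eIF4E-3, and eIF4E-3 above eIF4E-6, in every library.

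The remaining paralogs were at or near the detection limit. eIF4E-7 had 11 and 8 reads in mutants, against 2 and 1 reads in controls. Scaled by size factors this is a ratio of 5.08, with an exact binomial 95% interval of 1.5 to 26.8 that covers counting error only, and the gene was below the minimum for the test. eIF4E-5 had 2 and 4 reads in mutants, against 2 and 4 reads in controls, a ratio of 0.80 (interval 0.21 to 3.003). eIF4E-4 had no read in any library. The family thus ran from eIF-4E through eIF4E-3 and eIF4E-6 to eIF4E-7 and eIF4E-5, and the last pair overlapped in their counts. The related 4EHP, a cap-binding repressor listed without the eIF prefix, had 876.9 and 676.2 normalized counts in mutants, against 685.9 and 804.3 in controls, second in level only to eIF-4E.

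Both scaffold genes with the eIF prefix were expressed at about the same level. eIF4G (eIF4G1), the general scaffold, had 3673 and 3675 normalized counts in mutants, against 3001 and 3418 in controls, without overlap and with a log2 difference of 0.20 (SE 0.17, adjusted p = 0.980). eIF4G2, which in the fly is needed for meiotic division of spermatocytes, had 3053 and 4148 normalized counts in mutants, against 3722 and 2930 in controls, with overlap. Their ratio, eIF4G2 to eIF4G, was 0.83 and 1.13 in mutants, against 1.24 and 0.86 in controls. The eIF4G2 gene shares 779 exon bases on the same strand with CG33111. CG33111 had 180.7 and 204.0 normalized counts in mutants, against 389.2 and 269.7 in controls (log2 difference −0.75, SE 0.29, limma adjusted p = 0.831). How reads in the shared bases were counted is not given, so the counts of eIF4G2 may miss reads.

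The helicase eIF-4a (eIF4A) was among the most abundant of all transcripts, at the percentile 99.2 of the genes with reads. It had 21389 and 19334 normalized counts in mutants, against 21952 and 21460 in controls. Both mutants were below both controls by a small margin, with a log2 difference of −0.09 (SE 0.18, 95% interval −0.56 to 0.37). The ratio of eIF-4a to eIF-4E was 11.5 and 8.98 in mutants, against 15.1 and 19.1 in controls, and did not overlap. It mostly repeats the eIF-4E log2 difference of 0.65, since that of eIF-4a was only −0.09. The paralog eIF4AIII, a core helicase of the exon junction complex, had 504.9 and 866.0 normalized counts in mutants, against 821.0 and 557.6 in controls. It was low in mutant a and control b, and its log2 difference of −0.03 turned to 0.36 without mutant a, 0.25 without control a and 0.12 with the tissue covariate described further on.

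eIF-4B, the cofactor that stimulates eIF4A, was counted at a far lower level than its partner. It had 18 and 49 reads in mutants, against 13 and 5 reads in controls, or 15.9 and 43.7 against 13.2 and 6.07 normalized counts. The groups did not overlap, yet its log2 difference of 1.46 had an interval from −0.91 to 3.82 (adjusted p = 0.980), and it moved between 0.76 and 2.16 when 1 library was left out. The lower value came without mutant b, the library with most of its reads.

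The values of the factors of late steps overlapped between genotypes. eIF-5A, which helps the ribosome form difficult peptide bonds and is now named eEF5, had 19312 and 22952 normalized counts in mutants, against 24147 and 19639 in controls. eIF5B had 2862 and 2478 normalized counts in mutants, against 2436 and 3227 in controls. eIF6 had 725.4 and 858.0 normalized counts in mutants, against 800.7 and 520.0 in controls. The log2 differences of the 3 genes were −0.05, −0.07 and 0.29, with 95% intervals of −0.59 to 0.49 for eIF-5A, −0.61 to 0.46 for eIF5B and −0.39 to 0.97 for eIF6. The eIF6 difference ran from −0.02 to 0.60 when 1 library was left out, lowest without control b.

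Many of the initiation factor genes varied between libraries of the same genotype in the same sense. Mutant b was above mutant a in 20 of 28 members (71.4%), beside 50.2% of all genes tested, and control a was above control b in 22 of 28 (78.6%), beside 50.4%. Both held in 18 of 28 (64.3%), beside 37.5% of all genes tested, and both opposite orders held in 4 (14.3%), beside 36.7%. Control b was the lowest of the 4 libraries in 14 of 28 members (50%), beside 24.9% of all genes, and mutant b was the highest in 13 (46.4%), beside 21.5%. These shares are descriptions, since genes of 1 library are not independent.

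Relative to each gene's mean over the 4 libraries, the median member stood at 0.01 in mutant a and 0.18 in mutant b, against 0.05 in control a and −0.22 in control b, on the log2 scale. The same medians for muscle markers were 1.35 and −0.97 in mutants, against −0.99 and 0.62 in controls. For germ cell markers they were −0.08 and −0.02 in mutants, against 0.32 and −0.01 in controls. The libraries rich in muscle, neuron and midgut markers, mutant a and control b, were thus the lower ones of their genotype for the initiation factors. The part of those tissues in the levels of the initiation factors was not tested beyond the covariate fit that follows.

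**Figure D4:**
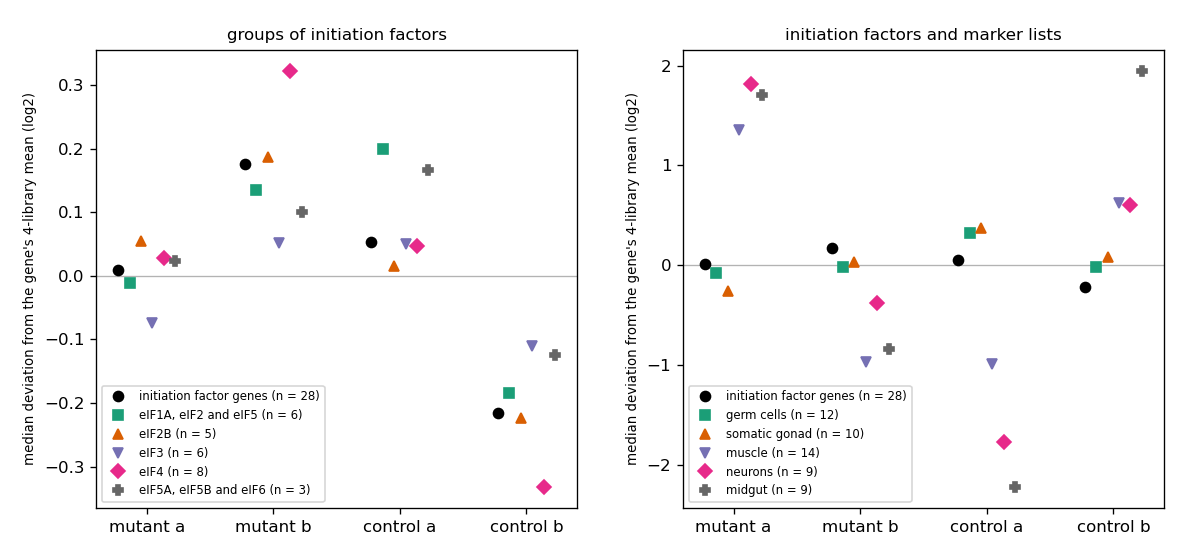
Median deviation from each gene's own mean over the 4 libraries (log2) for the groups of initiation factor genes (left) and for the initiation factor genes beside 5 marker lists (right), by library, with the number of genes in the legend. Initiation factors are lowest in control b (median −0.22), while muscle, neuron and midgut markers are high in mutant a and control b and span a far wider scale.

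With the mean log2 level of 32 muscle, neuron and midgut markers as a covariate, 4 of 28 members passed an adjusted p of 0.05, where 10.6% of all genes tested passed. They were eIF-4E (log2 difference 0.71, adjusted p = 1.19e-05), eIF2B-beta (0.79, adjusted p = 0.00207) and eIF-2beta (0.37, adjusted p = 0.00468), higher in mutants, and eIF-1A (−0.27, adjusted p = 0.0478), lower in mutants. The 3 higher ones stand beside 4.48% of all genes tested. This fit leaves 1 residual degree of freedom per gene, and most of its error comes from the 37.9 prior degrees of freedom shared over all genes, against 3.38 in the fit without the covariate. Without the covariate the adjusted p-values of these genes were 0.725, 0.725, 0.941 and 0.980.

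The symbol rule leaves out 14 current initiation factor genes that the table holds under other symbols, and 12 of them were tested. None passed the test (0 at an unadjusted p under 0.05), 9 had a positive and 3 a negative difference, and their median was 0.10 on the log2 scale. The most abundant was CG9769 (eIF3f1), with 17305 and 10044 normalized counts in mutants, against 8759 and 13004 in controls, more than any eIF3 subunit of the symbol rule. Adam (eIF3j) and CG10306 (eIF3k) had means of 1861 and 1942 normalized counts, below all 6 of those subunits. The other eIF3 duplicates were low here too: CG8335 (eIF3f2) had 99.2 and 183.5 normalized counts in mutants, against 160.6 and 99.6 in controls. CG4810 (eIF3d2) had no read.

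Genes that act on the initiation factors were read from fixed lists. Of 11 tested partners and regulators of the cap-binding complex, from 12 listed, 0 passed the test and 0 stood at an unadjusted p under 0.05. Thor, the fly 4E-BP that binds eIF4E and keeps it from eIF4G, had 12208 and 6946 normalized counts in mutants, against 7623 and 18565 in controls, and differed widely within each genotype. Its ratio to eIF-4E was 6.57 and 3.23 in mutants, against 5.24 and 16.5 in controls, highest in control b. pAbp, the poly(A)-binding protein, had 24124 and 22072 normalized counts in mutants, against 20208 and 23881 in controls.

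In the other lists, too, no gene passed the test. The counts at an unadjusted p under 0.05 that follow stand beside 5.92% of all genes tested. Of 11 tested genes of growth signalling to initiation, 1 stood at an unadjusted p under 0.05, the kinase gene Akt1, with 505.8 and 447.2 normalized counts in mutants, against 753.0 and 821.3 in controls (log2 difference −0.72, SE 0.20, adjusted p = 0.610). Of 14 tested initiation and recycling genes of other names, some of them among those just described, 1 did, DENR, whose product recycles ribosomes with MCTS1 in the same way as eIF2D. DENR had 627.1 and 971.1 normalized counts in mutants, against 1348 and 1298 in controls (log2 difference −0.76, SE 0.26, adjusted p = 0.760). Of 9 tested genes of germline translational control, 1 did, the translational repressor nos, with 696.2 and 683.3 normalized counts in mutants, against 450.2 and 504.2 in controls (log2 difference 0.53, SE 0.19, adjusted p = 0.781). Of 4 tested elongation and termination genes, from 9 listed, none did. That list is covered only in part: reads were not recovered for Ef1alpha48D, Ef1beta, Ef1gamma and EF2, and eIF-5A was counted with the members. The median log2 differences of these lists were −0.01 for cap-complex partners, −0.07 for growth signalling, 0.00 for initiation and recycling genes, 0.08 for germline control and 0.00 for elongation and termination, beside 0.02 over all genes tested. Only 17 of 93 cytoplasmic ribosomal protein genes could be tested, and they are not summarised.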

How the data were processed

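For the 3′-end libraries of 4 samples the authors used HISAT2 (dm6 genome), htseq-count and DESeq2, with versions and strand setting not given in the sources used. They deposited 1 table with a mean normalized count per gene (a signal pooled over 4 libraries), a log2 fold change (control divided by mutant) and its error, and the statistic, p-value and adjusted p of their comparison. The last 3 were not used, and no value of the authors' comparison is reported.

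A mean is a sum of whole reads times 1 value per library (0.221 and 0.223 for mutants, 0.254 and 0.304 for controls, named by the direction of the deposited log2 fold change). Up to a mean of 1000, all 11208 genes had exactly 1 set of whole reads, and 0.133% of 1500 decoy means had any. Between 1000 and 30000 the set also had to meet the deposited log2 fold change within 1e-06 (1e-05 where none did). That fold change was recomputed with a model set to the deposited standard error, with a fitted prior variance of 0.311. This solved 1348 of 1397 genes. Of 60 genes solved both ways, 59 had the same reads. Of the initiation factor genes 14 were solved from the mean alone and 17 with the fold change and its error. Recovered genes hold 52.8% of the summed mean counts.

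Normalized counts were tested with limma 3.58.1 in R 4.3.3 on log2(value + 1), over genes with a mean of at least 10, with 2 residual degrees of freedom, and the pipeline was tested on simulated data. p-values are two-sided. Current symbols and positions came from Ensembl 115 (BDGP6.54), which placed all 32 genes. Values per library are given for 4EHP, for all eIF4E, eIF4G and eIF4A genes of the symbol rule, and for single-gene factors. They are also given for the highest and lowest eIF2, eIF2B and eIF3 genes and for genes at an unadjusted p under 0.05. Others named were chosen after their values were seen. The genes and lists were chosen with earlier results of these data known. Alternatives were limma-voom, pseudocounts of 0.5 and 5, no minimum or a minimum of 50, 2 other scalings, genes up to a mean of 1000, the tissue covariate and leaving out each library.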

Additional observations from a re-analysis of the deposited data

How the results depend on the processing

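No paired analysis was possible because the recovered libraries carry no replicate number. With 2 libraries per genotype, p-values rest in part on the spread between the samples that the methods call biological replicates. They also rest on error shared over all genes, with 2 residual and 3.38 prior degrees of freedom in the main fit. Low genes such as eIF-4B rest on few reads, and eIF-4B also varied within genotypes (18 and 49 reads in mutants, 13 and 5 in controls). The count of 0 members passing held under limma-voom, pseudocounts of 0.5 and 5, no minimum, a minimum of 50, both other scalings, genes up to a mean of 1000 and each omitted library. With the tissue marker covariate 4 members and 955 genes (10.6% of all genes tested) passed. In that fit 8 members stood at an unadjusted p under 0.05 instead of 2. The share of all genes at that threshold was not computed for that fit, so the rise is not a result about the members. With genes up to a mean of 1000, which leaves 11 members, 1 stood at an unadjusted p under 0.05. Leaving out 1 library at a time gave 0 to 1 genes passing in the whole table and 0 to 2 members at an unadjusted p under 0.05: 0 without mutant a, mutant b or control b.

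Signs of 3 small differences turned with the covariate, to 0.046 for eIF-3p66, 0.013 for eIF-5A and 0.12 for eIF4AIII. Leave-one-out differences crossed 0 in 13 genes: eIF-2alpha (−0.12 to 0.023), eIF-2gamma (−0.92 to 0.081), eIF-3p66 (−0.42 to 0.23), eIF-5A (−0.20 to 0.10), eIF2B-gamma (−0.13 to 0.23), eIF2D (−0.020 to 0.61), eIF3-S10 (−0.16 to 0.017), eIF3-S8 (−0.17 to 0.026), eIF4AIII (−0.42 to 0.36), eIF4G2 (−0.11 to 0.33), eIF5 (−0.25 to 0.28), eIF5B (−0.28 to 0.13) and eIF6 (−0.021 to 0.60). The cause was not tested.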
